A study of Mus musculus with 6 samples.

Results

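Mural cells, the pericytes and smooth muscle of vessel walls, were examined by single-nucleus RNA sequencing after photothrombosis, an injury in which light and a circulating dye clot the vessels of a patch of mouse cortex. A nucleus was taken as mural when it had UMIs (unique molecular identifiers, here single captured RNA molecules) of at least 3 of the 7 genes Rgs5, Abcc9, Kcnj8, Notch3, Pdgfrb, Myh11 and Higd1b, of at least 1 of Rgs5, Abcc9, Kcnj8 and Myh11, and of at most 1 of the leukocyte, endothelial and fibroblast genes Ptprc, Csf1r, Pecam1, Cdh5, Postn and Lama1. Of the 60729 nuclei with at least 1000 UMIs and under 5% mitochondrial UMIs, 582 met this rule. The rule read the same counts that are described here, so the levels of these 13 genes are no finding.

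The study asked how lesions form when transforming growth factor β (TGFβ) signalling is disturbed. The 6 libraries were Ctrl (wild-type mice, untreated), ADWA11 (wild-type mice given weekly ADWA11, an antibody that blocks integrin αvβ8, a surface receptor that releases active TGFβ, from the time of injury) and Tgfbr2-cKO (mice with floxed Tgfbr2, the type 2 TGFβ receptor, and Col1a2-creER, a Cre recombinase that acts after tamoxifen in cells using the Col1a2 promoter, which fibroblasts use strongly), each at 7 and 21 days post injury (dpi). All 6 groups carried the same injury. The study's methods give mice of both sexes aged 7 to 21 weeks unless stated otherwise, with no age for single libraries. Lesions were dissected with whatever brain tissue remained attached, nuclei were sorted on the DNA stain DAPI, and each library pooled 1 male and 1 female mouse. With 1 library a group there is no test between conditions. All intervals below are 95% exact intervals that cover counting error only, and a ratio between libraries compares those libraries. Because 3′ UMIs of Tgfbr2 need not come from the floxed part, its level (105 to 201 CPM, that is UMIs per 1000000 UMIs, in the mural nuclei of the 6 libraries) does not check the deletion.

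Mural cells are the contractile and supportive cells wrapped around the endothelium. Pericytes sit within the capillary basement membrane, express Pdgfrb (the receptor through which endothelial platelet-derived growth factor recruits them) and help to maintain the blood-brain barrier. Smooth muscle cells ring arteries and arterioles and carry a contractile apparatus of Acta2, Tagln and Myh11 under the transcriptional coactivator Myocd. Both depend on Notch3, and after injury some perivascular cells proliferate or take on matrix genes.

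The libraries held 7205 to 14246 barcodes, of which 6328 to 12656 passed the filter, with median depths of 5221 to 9114 UMIs. Ctrl gave 76 mural nuclei at 7 dpi and 186 at 21 dpi, ADWA11 gave 86 and 95, and Tgfbr2-cKO gave 44 and 95. Their median depth was 7210 and then 4462 UMIs in Ctrl, 8726 and 4793 in ADWA11, and 3491 and 5026 in Tgfbr2-cKO, whose nuclei at 7 dpi were the fewest and the shallowest. Between 21 and 61 barcodes were shared by pairs of libraries, and no mural barcode was shared.

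Notch3 (550 of 582) and Pdgfrb (547) were detected in nearly all mural nuclei, Rgs5, a regulator of G protein signalling, in 426, and Abcc9, a subunit of the pericyte ATP-sensitive potassium channel, in 379. Its partner subunit Kcnj8 was detected in 81, Myh11, the smooth muscle myosin heavy chain, in 234, and Higd1b, a mitochondrial protein gene of pericytes, in 23. At the edge of the rule, 259 members had exactly 3 of the 7 markers at a median depth of 7283 UMIs, and 407 nuclei that met the other conditions had 2, at a median depth of 7197 UMIs. A further 200 nuclei had enough markers and 2 of the excluded genes, and 2 lacked only Rgs5, Abcc9, Kcnj8 and Myh11. Among the members, 322 had none of the excluded genes and 260 had 1, most often Postn (101) or Ptprc (67).

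The label held for a part of these nuclei. Clustered on genes outside the rule, 103 nuclei led with Atp13a5, Slc6a20a, Vtn, Grm3 and Pde8b and were pericyte-like, 57 led with Pdlim3, Ntf3, Myocd and Pln and were smooth muscle-like, 154 led with Agtr1a, Stac, Eya4, Fhl5 and Trpc6 and stayed unnamed, and 14 led with cell cycle genes. These 328 nuclei (56.4%) are called the core below. The other 254 led with genes of other classes or of a single library: 128 with the fibroblast genes Col12a1, Bnc2 and Tll1, 57 with endothelial and myeloid genes, 30 with astrocyte and oligodendrocyte precursor genes, 8 with neuronal genes, and 31 with Gabrg3, Lingo2 and Slc7a11, of which 29 came from Tgfbr2-cKO at 21 dpi. In 22 of these 31, fibroblast markers had the largest share detected of all classes, the rule's markers included. A doublet caller marked 56 of the 582. In 341 members, detected markers of another class outnumbered those of the rule, against longer marker lists. These are more than the 254 outside the core, so some core nuclei are among them. The clusters were built from these nuclei's own expression, so values in the core are a description. Results are therefore given for all members, as the rule defines them, with core counts beside the lists and core ratios beside many of the genes.

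Mural nuclei made up 0.961% of nuclei (95% interval 0.758 to 1.20) in Ctrl, 0.788% (0.631 to 0.972) in ADWA11 and 0.405% (0.295 to 0.544) in Tgfbr2-cKO at the earlier time. At 21 dpi they made up 1.54% (1.33 to 1.78), 0.751% (0.608 to 0.917) and 1.50% (1.22 to 1.83) in the same order. Relative to Ctrl of the same day, the log2 ratio of the share in Tgfbr2-cKO was -1.25 (-1.82 to -0.69) and then -0.04 (-0.41 to 0.33). In ADWA11 it was -0.29 (-0.75 to 0.18) and then -1.04 (-1.41 to -0.67). Ctrl at 21 dpi against Ctrl at 7 dpi gave 0.68 (0.29 to 1.09), but 0.26 (-0.26 to 0.80) in the core and 0.37 (-0.08 to 0.83) with nuclei thinned to 1500 UMIs. Nuclei of neurons and glia numbered 8153 and 2665 in the Tgfbr2-cKO libraries and 429 to 1428 in the other 4. Whether the neural tissue taken along differed cannot be told from nuclei alone. Of the non-neural nuclei alone, mural nuclei were 1.02%, 0.821% and 1.63% at 7 dpi and 1.75%, 0.782% and 2.59% at 21 dpi, which turned the ratio in Tgfbr2-cKO at 7 dpi to 0.68 (0.11 to 1.23). With every nucleus thinned to 1500 UMIs, and 215 to 984 shallower nuclei of each library left out, the shares were 0.843%, 0.458% and 0.266% at 7 dpi and 1.09%, 0.474% and 0.770% at 21 dpi.

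Set against the endothelium they cover, mural nuclei were most numerous in Tgfbr2-cKO. There were 118.9 mural nuclei per 100 endothelial nuclei at 7 dpi and 83.3 at 21 dpi in Tgfbr2-cKO, against 35.2 and 35.1 in Ctrl and 46.0 and 26.2 in ADWA11. The log2 ratios to Ctrl were 1.76 (0.97 to 2.54) and 1.25 (0.77 to 1.73) in Tgfbr2-cKO and 0.39 (-0.16 to 0.94) and -0.42 (-0.85 to -0.01) in ADWA11, at 7 and 21 dpi, with the counts of endothelial nuclei taken into the intervals. The core alone gave 91.9 and 47.4 per 100 in Tgfbr2-cKO against 22.2 and 16.6 in Ctrl. Endothelial nuclei numbered 37 and 114 in the Tgfbr2-cKO libraries and 187 to 530 in the others. Their log2 share ratio in Tgfbr2-cKO was -3.00 at 7 dpi and -1.29 at 21 dpi. Nuclei recovered and cells in the tissue cannot be told apart here.

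**Figure D1:**
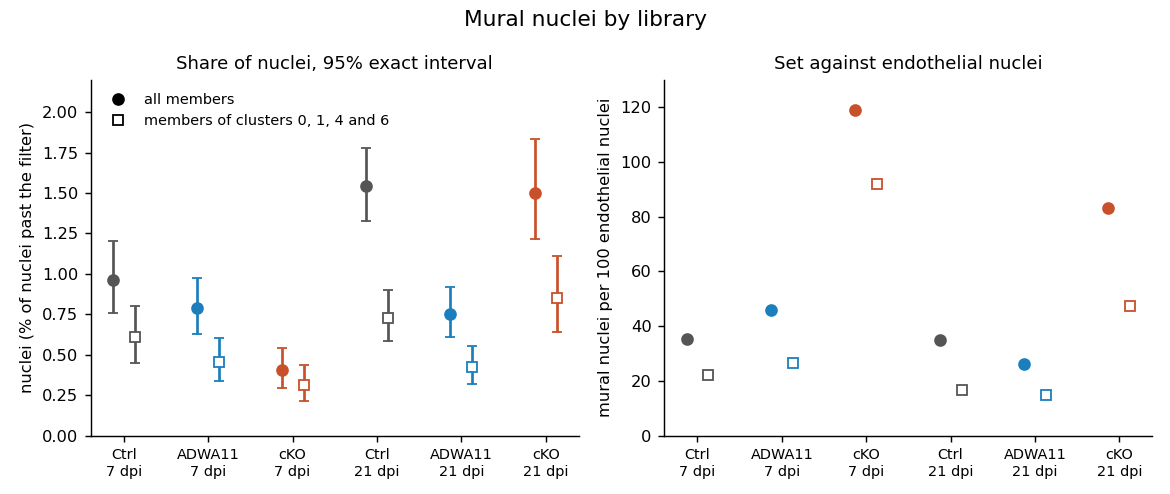
Mural nuclei in each library, as a percentage of nuclei past the filter with 95% exact intervals (left) and per 100 endothelial nuclei (right), for all members (filled) and for the core (open squares; clusters 0, 1, 4 and 6). The share was lowest in Tgfbr2-cKO at 7 dpi (0.405%), while the number per 100 endothelial nuclei was highest there (118.9).

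Gene levels are given as CPM of the mural nuclei's own non-mitochondrial UMIs, summed over each library's members. Since the sums are taken over a mixed class, fewer nuclei of a type and less RNA per nucleus cannot be told apart in them. The pericyte-like cluster held 29 of 44 members of Tgfbr2-cKO at 7 dpi and 38 of 95 at 21 dpi. Its counts in Ctrl were 6 of 76 and 18 of 186. The unnamed cluster led by Agtr1a and Stac held 4 of 44 and 11 of 95 in Tgfbr2-cKO. Its counts in Ctrl were 32 of 76 and 48 of 186. The part of these shares in the gene ratios below was not tested. Genes with at least 20 UMIs in both libraries together were compared, and a gene is counted as higher or lower when its level differed at least 2-fold. The comparisons with Ctrl at a given time share the Ctrl library. A ratio against a library with no UMI of a gene was computed against 3 UMIs and is a bound.

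Several pericyte genes were higher in Tgfbr2-cKO at both times. Atp13a5 (chromosome 16, 29231851 to 29378732, minus strand, GRCm38), which encodes a P5-type ATPase used as a marker of brain pericytes, stood at 48.3 CPM in Ctrl, 38.3 in ADWA11 and 1775 in Tgfbr2-cKO at 7 dpi. By 21 dpi the values were 291, 15.2 and 1138 CPM. Both Tgfbr2-cKO libraries lay above the 4 others, and ADWA11 at 21 dpi lay lowest. The log2 ratio of Tgfbr2-cKO to Ctrl was 5.20 (4.67 to 5.79) at 7 dpi and 1.97 (1.79 to 2.15) at 21 dpi. In the core these ratios were 5.52 and 1.99. In the remaining nuclei of the same libraries its level was 2.03 to 22.5 CPM, which the rule for named genes fixed in part.

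Vtn (chromosome 11, 78499091 to 78502324, plus strand), the gene of vitronectin, an adhesive protein that brain pericytes secrete, was also highest in Tgfbr2-cKO, with 20.9 CPM in Ctrl, 38.3 in ADWA11 and 573 in Tgfbr2-cKO at 7 dpi. At 21 dpi it stood at 147, 70.4 and 370.0 CPM. Its log2 ratios in Tgfbr2-cKO were 4.78 (3.95 to 5.72) and 1.33 (1.06 to 1.61). Pde8b, a cAMP phosphodiesterase gene, stood at 320.1, 224 and 1556 CPM at 7 dpi and at 334, 137 and 906 CPM at 21 dpi, with log2 ratios of 2.28 (2.03 to 2.54) and 1.44 (1.26 to 1.62) in Tgfbr2-cKO. In the core the ratios at the 2 times were 5.32 and 1.80 for Vtn and 2.35 and 1.76 for Pde8b. Art3, an ADP-ribosyltransferase family gene, stood at 27.3, 30.4 and 181 CPM and then at 32.4, 41.9 and 91.6 CPM. Grm3, which encodes a metabotropic glutamate receptor and was not in the pericyte list, stood at 185, 89.0 and 1227 CPM at 7 dpi and at 207, 19.0 and 629 CPM at 21 dpi. In the core of Ctrl and Tgfbr2-cKO Grm3 stood at 301 and 1859 CPM and then at 525 and 1835 CPM.

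By sex-linked transcripts, 257 of the 582 mural nuclei were assigned to a female and 190 to a male mouse, and the rest to neither. In the nuclei assigned to either of the 2 mice, Atp13a5 was higher in Tgfbr2-cKO than in Ctrl. In Tgfbr2-cKO the female and male nuclei held 1372 and 5864 CPM at 7 dpi, the latter in 9 nuclei, and 742 and 1506 CPM at 21 dpi. In Ctrl they held 71.6 and 56.3 CPM at 7 dpi and 354 and 241 CPM at 21 dpi, and in ADWA11 4.81 and 126 CPM and then 29.2 CPM and 0. Both mice of the Tgfbr2-cKO pools lay above both mice of the Ctrl pool of the same day.

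Of the 18 genes of the pericyte list, 13 could be compared at 7 dpi: 6 were higher in Tgfbr2-cKO (Atp13a5, Vtn, Art3, Pde8b, Zic1 and Enpep) and 1 was lower (Ebf1, 6635 against 2888 CPM), and the list's median log2 ratio was 0.97. Over all 6780 genes compared, 10.99% were higher and 14.04% lower, with a median of -0.11. At 21 dpi 6 of 16 were higher and none lower, with a median of 0.64, against 6.95% higher and 9.45% lower over all 10259 genes, with a median of 0.01. In the core 7 of 12 and 7 of 15 were higher and none lower, where 9.30% of 4235 genes were higher and 16.4% lower at 7 dpi and 8.01% of 5216 higher and 9.38% lower at 21 dpi. Not every pericyte gene followed: Cspg4, which encodes the proteoglycan NG2, stood at 214 and 274 CPM in Ctrl and Tgfbr2-cKO on day 7, for a log2 ratio of 0.36 (-0.09 to 0.80).

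The promoter sequences of Atp13a5, Vtn and Acta2, which carry the pericyte and smooth muscle differences, are given from RefSeq on GRCm38.p6 to show what lies before their starts. Each is the 250 bases before the start in the RefSeq promoter table, which for Vtn lies inside the gene's span given above, and is written 5′ to 3′ on the gene's own strand, and capitals mark the letters TGGGAA on either strand, the core of the site bound by RBPJ, through which Notch receptors act.
Atp13a5, chr16:29378733-29378982, minus strand: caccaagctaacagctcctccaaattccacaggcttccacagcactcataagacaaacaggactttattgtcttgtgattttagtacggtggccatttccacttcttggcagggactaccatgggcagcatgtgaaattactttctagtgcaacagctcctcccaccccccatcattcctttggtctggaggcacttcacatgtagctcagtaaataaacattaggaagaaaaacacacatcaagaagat
Vtn, chr11:78498870-78499119, plus strand: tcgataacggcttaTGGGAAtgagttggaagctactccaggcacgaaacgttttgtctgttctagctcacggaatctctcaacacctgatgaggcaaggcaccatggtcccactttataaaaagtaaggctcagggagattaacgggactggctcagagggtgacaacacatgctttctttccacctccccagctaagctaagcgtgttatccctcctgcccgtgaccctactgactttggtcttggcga
Acta2, chr19:34255374-34255623, minus strand: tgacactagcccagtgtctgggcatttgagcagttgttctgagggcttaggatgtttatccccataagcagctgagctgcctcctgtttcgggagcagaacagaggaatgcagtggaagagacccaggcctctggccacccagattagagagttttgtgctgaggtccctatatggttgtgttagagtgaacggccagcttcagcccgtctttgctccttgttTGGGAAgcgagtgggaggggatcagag
The Atp13a5 window held no TGGGAA, the Vtn window 1, beginning at base -236 from that table's start, and the Acta2 window 1, beginning at base -27. The letters occurred in 21.6% of 32851 such windows, in 7 of the 14 pericyte list genes that had a window and in 3 of the 16 smooth muscle list genes that had one. The CArG box is the site of serum response factor, with which myocardin acts. Its strict form, CCWWWWWWGG with W for A or T, occurred in 1.47% of windows, in 0 of the 14 and 1 of the 16. Looser forms with a G or C among the W letters were not counted. The Acta2 window holds such forms, ccctatatgg and ccttgtttgg, and the latter overlaps the marked TGGGAA. The percentages are of windows, while the counts are of genes with a match in any of their windows. They therefore cannot be set against each other. A match is a run of letters and not evidence of binding.

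**Figure D2:**
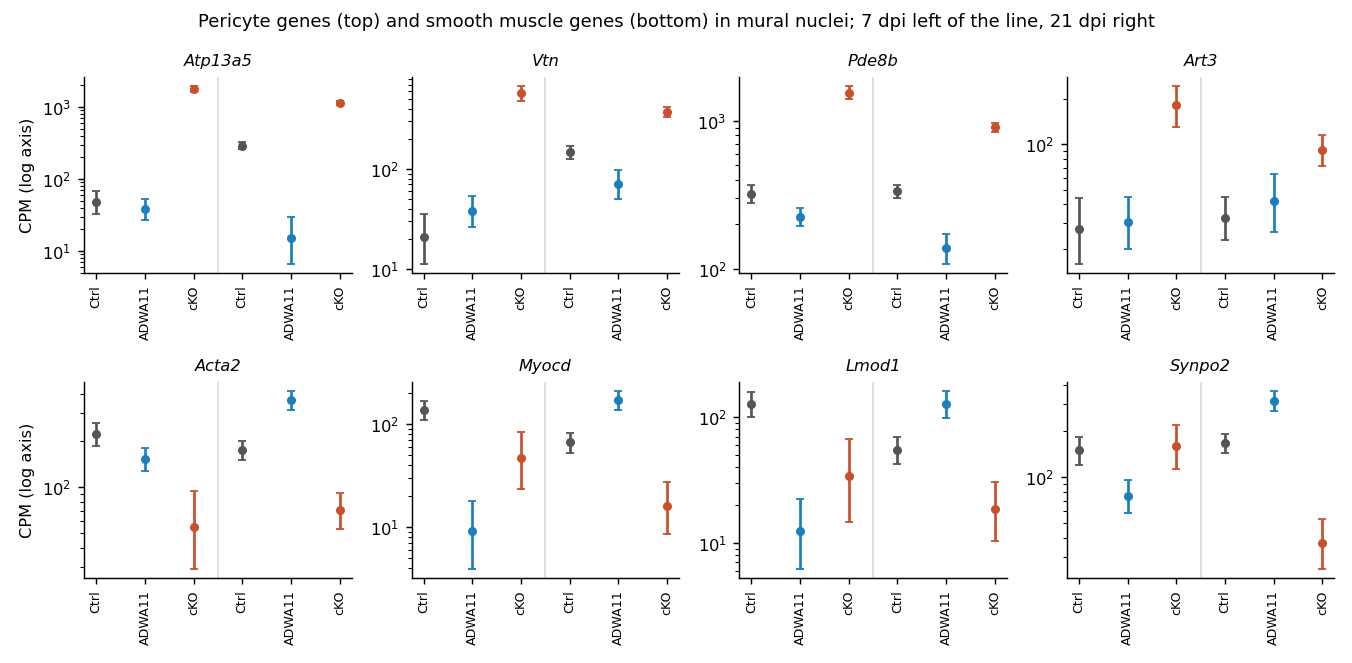
Levels of 4 pericyte genes (top) and 4 smooth muscle genes (bottom) in the mural nuclei of each library, in CPM on log axes that start above 0, with 95% exact Poisson intervals. Tgfbr2-cKO lay highest in every pericyte panel at both times, and Acta2 ran from 54.8 CPM in Tgfbr2-cKO at 7 dpi to 365 CPM in ADWA11 at 21 dpi.

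Some smooth muscle contractile genes were lower in the pooled Tgfbr2-cKO libraries, and at 7 dpi the female and male nuclei differed in this. Acta2, smooth muscle α-actin, stood at 220.4 CPM in Ctrl and 54.8 in Tgfbr2-cKO at 7 dpi and at 173 and 70.5 CPM at 21 dpi, log2 ratios of -2.01 (-2.95 to -1.19) and -1.29 (-1.74 to -0.86). Myocd (chromosome 11, 65176561 to 65269989, minus strand) stood at 137 and 46.4 CPM and then at 66.4 and 16.1 CPM, with log2 ratios of -1.56 (-2.62 to -0.65) and -2.05 (-3.02 to -1.19). Lmod1, leiomodin, an actin nucleator of smooth muscle, stood at 127 and 33.7 CPM and then at 54.8 and 18.6 CPM. Each of these lay lower in Tgfbr2-cKO than in Ctrl in the pooled libraries at both times. The core ratios at 7 and 21 dpi were -1.65 and -1.37 for Acta2, -2.22 and -2.01 for Myocd and -2.77 and -1.82 for Lmod1. By mouse at 7 dpi, Acta2 was lower in the female (125 and 50.6 CPM) and the male nuclei (403 and 38.6 CPM, the latter 1 UMI). Myocd and Lmod1, each on 5 to 9 UMIs in the females, stood higher in the female Tgfbr2-cKO nuclei (40.3 and 50.6 CPM for Myocd, 22.4 and 50.6 CPM for Lmod1). In the males both were at 0 UMIs in Tgfbr2-cKO, against 328 and 286 CPM in Ctrl.

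Of the 20 contractile genes, 18 were compared at each time, and 7 were lower and none higher at 7 dpi (median -0.79) and 6 lower and none higher at 21 dpi (median -0.50), where 14.04% and 9.45% of all genes were lower. Without the non-core clusters the counts were 8 lower and 1 higher of 16 at 7 dpi and 10 lower of 18 at 21 dpi, where 16.4% and 9.38% of all genes were lower. By mouse at 7 dpi, 2 of 9 were lower in the female and 9 of 13 in the male nuclei, where 14.5% and 24.8% of all genes were lower. Only 9 Tgfbr2-cKO nuclei came from the male and 27 from the female. At 21 dpi, 3 of 15 and 8 of 13 were lower, where 10.1% and 13.8% of all genes were. Synpo2, synaptopodin 2, which binds actin, stood at 149.6 and 160.2 CPM in Ctrl and Tgfbr2-cKO at 7 dpi. The values at 21 dpi were 167 and 37.1 CPM. In the core its log2 ratio at 7 dpi was -2.29, on 5 and 72 UMIs. The share of members with at least 2 of 6 smooth muscle genes is a description only, since Myh11 is one of them and also a gene of the rule. It was 32.9% (22.5 to 44.6) in Ctrl, 22.1% (13.9 to 32.3) in ADWA11 and 11.4% (3.79 to 24.6) in Tgfbr2-cKO at 7 dpi. At 21 dpi it was 27.4% (21.1 to 34.4), 40.0% (30.1 to 50.6) and 14.7% (8.30 to 23.5). Thinned to 1500 UMIs it was 17.2%, 12.2% and 3.57% and then 24.0%, 53.4% and 8.51%.

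Stac and Ebf2 were among the 10 genes named as lower in Tgfbr2-cKO at both times. Stac (chromosome 9, 111561437 to 111690348, minus strand), an adaptor of voltage-gated calcium channels, stood at 581 CPM in Ctrl, 275 in ADWA11 and 25.3 in Tgfbr2-cKO at 7 dpi. By 21 dpi the values were 288, 455 and 34.6 CPM. Ebf2 (chromosome 14, 67233292 to 67430918, plus strand), a transcription factor of the early B-cell factor family, stood at 559.9, 233 and 16.9 CPM and then at 333, 472 and 73.0 CPM. Their log2 ratios in Tgfbr2-cKO were -4.52 and -5.05 at 7 dpi and -3.06 and -2.19 at 21 dpi, and -4.41 and -6.19 and then -2.75 and -2.45 in the core. Both genes lay lowest in the 2 Tgfbr2-cKO libraries.

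Fibrillar and scar matrix genes were lower in Tgfbr2-cKO, in larger number at 7 dpi. Their summed level was also lower there in endothelial, fibroblast and remaining nuclei. Col1a2, a chain of type I collagen and the gene whose promoter drives Cre here, stood at 1501 CPM in Ctrl, 1811 in ADWA11 and 92.7 in Tgfbr2-cKO at 7 dpi. By 21 dpi the values were 1918, 1861 and 391 CPM. Its log2 ratios in Tgfbr2-cKO were -4.02 (-4.70 to -3.41) and -2.29 (-2.47 to -2.12). Col1a1, the other chain, stood at 803, 751 and 63.2 CPM and then at 750.3, 773 and 96.5 CPM. Col12a1, a fibril-associated collagen gene, stood at 611, 828 and 67.5 CPM and then at 456, 310.2 and 114 CPM. The Tgfbr2-cKO libraries lay lowest for all 3 genes at both times.

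At 7 dpi 17 of the 19 matrix genes compared (of 22 listed) were lower, none was higher, and the median log2 ratio was -1.93, where 14.04% of all genes were lower. At 21 dpi 7 of 21 were lower and 2 higher, with a median of -0.61, where 9.45% of all genes were lower and 6.95% higher. In the core 12 of 16 were lower at 7 dpi and 8 of 17 were lower with 3 higher at 21 dpi, where 16.4% and 9.38% of all genes were lower and 8.01% were higher at 21 dpi. The summed level of 13 fibroblast markers in the mural nuclei was 6250, 8057 and 2019 CPM at 7 dpi and 6809, 6822 and 2850 CPM at 21 dpi, with 12 or 13 detected in each library, but Col1a1, Col1a2 and Col3a1 are in both lists. The other 10 markers summed to 2445, 3312 and 1286 CPM and then to 3115, 2951 and 1917 CPM. Most of their gap between Ctrl and Tgfbr2-cKO lay in Bnc2, a zinc finger gene of fibroblasts, at 1203 and 215 CPM and then at 1585 and 490.0 CPM, and the remaining 9 summed to 1242 and 1071 CPM and then to 1530 and 1427 CPM. Of the 13 markers 11 could be compared at 7 dpi, with 5 lower and 1 higher in Tgfbr2-cKO. Over all genes 14.04% were lower and 10.99% higher. The higher 1 was Aldh1a2, a retinoic acid synthesis gene, at 37.0 CPM in Ctrl and 97.0 in Tgfbr2-cKO. Dcn, decorin, stood at 78.8 and 143 CPM, within 2-fold. In the core Aldh1a2 had 14 and 0 UMIs and Dcn 9 and 1. In the core the 10 summed to 1113 and 885 CPM in Ctrl and Tgfbr2-cKO at 7 dpi and to 910 and 986 CPM at 21 dpi. Fibroblast nuclei themselves held 2905 and 957 CPM of Col1a2 in Ctrl and Tgfbr2-cKO at 7 dpi, and later 3027 and 476 CPM. The matrix list summed to 3970 and 1408 CPM in endothelial nuclei of Ctrl and Tgfbr2-cKO at 7 dpi, and to 4538 and 1210 CPM at 21 dpi. In fibroblast nuclei it summed to 15278 and 6862 CPM and then to 11801 and 2912 CPM. In the remaining nuclei it summed to 6771 and 432 CPM and then to 7580 and 655 CPM. The mural sums were 10578 and 2820 CPM and then 7974 and 2887 CPM. Fibroblast nuclei numbered 2149 and 5987 in Ctrl and 355 and 772 in Tgfbr2-cKO at 7 and 21 dpi. The fibroblast-led cluster of members held 17 of 76 and then 56 of 186 in Ctrl. It held 2 of 44 and then 0 of 95 in Tgfbr2-cKO. The Gabrg3-led cluster of 31, with 29 from Tgfbr2-cKO at 21 dpi, also carried fibroblast markers. They summed to 4570 CPM there, against 11963 CPM in the fibroblast-led and 1422 CPM in the pericyte-like cluster. Matrix genes summed to 14800 CPM in the fibroblast-led cluster, 4143 CPM in the Gabrg3-led cluster and 1737 CPM in the pericyte-like cluster. The part of fibroblast RNA and of these clusters in the mural levels was not tested. The core of Ctrl held 684 and 949 CPM of Col1a2 at 7 and 21 dpi, and the core of Tgfbr2-cKO 62.5 and 200.4 CPM.

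**Figure D3:**
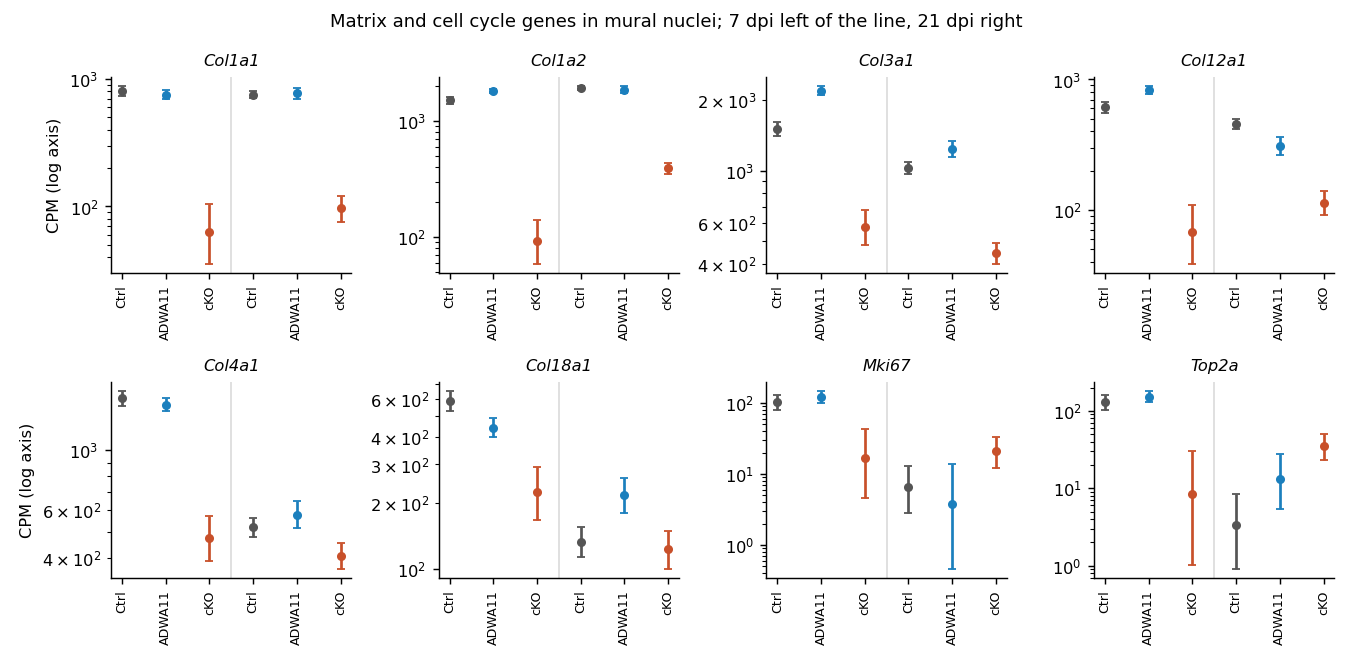
Levels of matrix genes (Col1a1 to Col18a1) and of the proliferation genes Mki67 and Top2a in the mural nuclei of each library, in CPM on log axes that start above 0, with 95% exact Poisson intervals. Col1a1, Col1a2, Col3a1 and Col12a1 lay lowest in Tgfbr2-cKO at both times, while Mki67 and Top2a were above 100 CPM only in Ctrl and ADWA11 at 7 dpi.

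Some basement membrane genes were lower in Tgfbr2-cKO, over all members in larger number at 7 dpi but in the core in equal number at both times. Col4a1, a chain of the type IV collagen that mural and endothelial cells share, stood at 1549 CPM in Ctrl, 1471 in ADWA11 and 476 in Tgfbr2-cKO at 7 dpi. By 21 dpi the values were 520.4, 578 and 408 CPM. Its log2 ratio in Tgfbr2-cKO was -1.70 (-2.00 to -1.42) at 7 dpi and -0.35 (-0.55 to -0.16) at 21 dpi. Of 17 basement membrane genes 7 were lower at 7 dpi, where 14.04% of all genes were lower, and 1 was higher, which was Lamc3, a laminin γ chain (77.2 against 173 CPM, 1.16, 0.52 to 1.79). At 21 dpi 2 of 18 were lower and none higher, near the 9.45% of all genes that were lower. In the core 5 of 15 were lower and 1 higher at 7 dpi, and 5 of 16 were lower and 1 higher at 21 dpi, where 16.4% and 9.38% of all genes were lower. The list's sum at 7 dpi was also lower in other classes of Tgfbr2-cKO. It was 6631 CPM in Ctrl and 3438 in Tgfbr2-cKO in endothelial nuclei, 5036 and 4338 in fibroblasts and 2465 and 477 in the remaining nuclei.

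Genes of TGFβ signalling included 7 lower of 23 compared at 7 dpi and 3 lower and 1 higher of 25 at 21 dpi in Tgfbr2-cKO. The shares of all genes were 14.04% lower at 7 dpi and 9.45% lower and 6.95% higher at 21 dpi, so that the count at 21 dpi lay near them. In the core 6 were lower and 1 higher of 20 at 7 dpi and 3 lower of 19 at 21 dpi. Of all genes in the core, 16.4% were lower and 9.3% higher at 7 dpi, and 9.38% and 8.01% at 21 dpi. Tgfb3, a ligand, stood at 70.8 and 21.1 CPM in Ctrl and Tgfbr2-cKO at 7 dpi and at 44.8 and 16.1 CPM at 21 dpi, with 1 or 2 UMIs in the core of Tgfbr2-cKO. Ltbp1, which holds latent TGFβ in the matrix, stood at 378 and 118 CPM at 7 dpi and at 128 and 42.1 CPM at 21 dpi. In the core it stood at 614 and 17.9 CPM at 7 dpi, on 202 and 2 UMIs, and at 309 and 116 CPM at 21 dpi. Ltbp1 was a leading gene of the smooth muscle-like cluster, at 1407 CPM there and 52.5 CPM in other members. That cluster held 6 of 76 members in Ctrl and 1 of 44 in Tgfbr2-cKO at 7 dpi, and 21 of 186 and 4 of 95 at 21 dpi. The part of these shares in the Ltbp1 levels was not tested. Tgfbr3, the co-receptor betaglycan, was higher at 21 dpi (207 and 617 CPM, log2 ratio 1.58), but not in the core, where the ratio was -0.11 (-0.69 to 0.47).

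Among the 18 genes of mural recruitment and Notch signalling, 12 could be compared at 7 dpi, with 3 lower and 1 higher in Tgfbr2-cKO, and 14 at 21 dpi, with 3 lower and 1 higher. Over all genes 14.04% were lower and 10.99% higher at 7 dpi, and 9.45% and 6.95% at 21 dpi. In the core 4 were lower and 2 higher of 10 at 7 dpi and 3 lower of 10 at 21 dpi. The core shares of all genes were 16.4% lower and 9.3% higher at 7 dpi, and 9.38% and 8.01% at 21 dpi. Jag1, a Notch ligand, stood at 235 and 75.9 CPM in Ctrl and Tgfbr2-cKO at 7 dpi and at 212 and 89.1 CPM at 21 dpi, log2 ratios of -1.63 (-2.42 to -0.92) and -1.25 (-1.65 to -0.87), and -1.13 and -1.81 in the core. Hey2, a Notch target, was higher at 7 dpi (43.4 and 105 CPM, 1.28, 0.43 to 2.12, and 1.25 in the core) and stood at 31.5 and 34.6 CPM at 21 dpi. Heyl, another Notch target, stood at 111 and 63.2 CPM at 7 dpi (-0.81, -1.72 to 0.01, and -0.19 in the core).

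Of the genes that set vascular tone, 2 of 14 were lower at 7 dpi and 1 of 16 was higher at 21 dpi in Tgfbr2-cKO, near the shares of all genes (14.04% lower and 6.95% higher). In the core 3 were lower and 1 higher of 14 at 7 dpi and 2 lower and 1 higher of 15 at 21 dpi. There 16.4% of all genes were lower and 9.3% higher at 7 dpi, and 9.38% and 8.01% at 21 dpi. Agtr1a, the angiotensin receptor, was 1 of those lower at 7 dpi, with 42 UMIs (67.6 CPM) in Ctrl and 2 UMIs (8.43 CPM) in Tgfbr2-cKO, a log2 ratio of -3.00 (-6.09 to -1.06). Ednra, the endothelin receptor of mural cells, stood at 721 and 426 CPM at 7 dpi and at 407 and 287 CPM at 21 dpi, within 2-fold both times.

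Gabrg3 and Slc7a11, which led the group of 31 nuclei nearly all from Tgfbr2-cKO at 21 dpi, ranked among the genes named as higher there. Slc7a11, the cystine transporter, stood at 36.5 CPM in Ctrl and 979 in Tgfbr2-cKO, and at 9.10 and 44.1 CPM in the core. Sned1, an extracellular matrix gene, stood at 628 and 5266 CPM, and in the core at 628 and 301 CPM, which turned its log2 ratio from 3.07 to -1.06. Of the inflammatory and adhesion genes 4 of 13 were higher over all members, where 6.95% of all genes were higher, and 1 was higher and 2 lower of 9 in the core, where 8.01% were higher and 9.38% lower. At 7 dpi 2 of 8 were higher and 1 was lower, where 10.99% were higher and 14.04% lower. The last 2 counts rest on few genes. Il1r1, the interleukin 1 receptor, stood at 229.9 and 1324 CPM over all members and at 306 and 385 CPM in the core. Cxcl12, a chemokine, stood at 139 and 739 CPM over all members and at 87.9 and 44.1 CPM in the core. Dcdc2a, a doublecortin domain gene, remained higher, at 17.4 and 156 CPM over all members and 30.3 and 473 CPM in the core.

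Transcripts of neuron and glia marker genes were present in the mural nuclei at levels that differed between libraries. The oligodendrocyte markers were highest in both Tgfbr2-cKO libraries. The summed level of 12 neuronal markers was 2627, 2565 and 9735 CPM at 7 dpi and 5310, 1423 and 4990 CPM at 21 dpi, and in the core 2166, 1914 and 3020 CPM and then 1431, 1174 and 1811 CPM. The sum of 10 oligodendrocyte markers, all of them detected in both Tgfbr2-cKO libraries, was 961 and 496 CPM there and 122 to 169 CPM in the other 4, and 1832 and 1190 CPM against 50.9 to 91.0 CPM in the core. Of the 10 astrocyte markers, also all detected in both Tgfbr2-cKO libraries, the sums were 2336 and 1652 CPM there and 492 to 1310 CPM in the others. By cluster, the oligodendrocyte markers were highest in the pericyte-like cluster, at 1247 CPM. In the remaining nuclei of the Tgfbr2-cKO libraries they summed to 758 CPM at 7 dpi and 1649 CPM at 21 dpi, and in those of the other 4 to 529 to 554 CPM. The neuronal markers summed to 35958 and 20140 CPM in the remaining nuclei of the Tgfbr2-cKO libraries. In those of the other 4 they summed to 1472 to 4392 CPM. The origin of these transcripts and their part in the differences above were not tested.

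**Figure D4:**
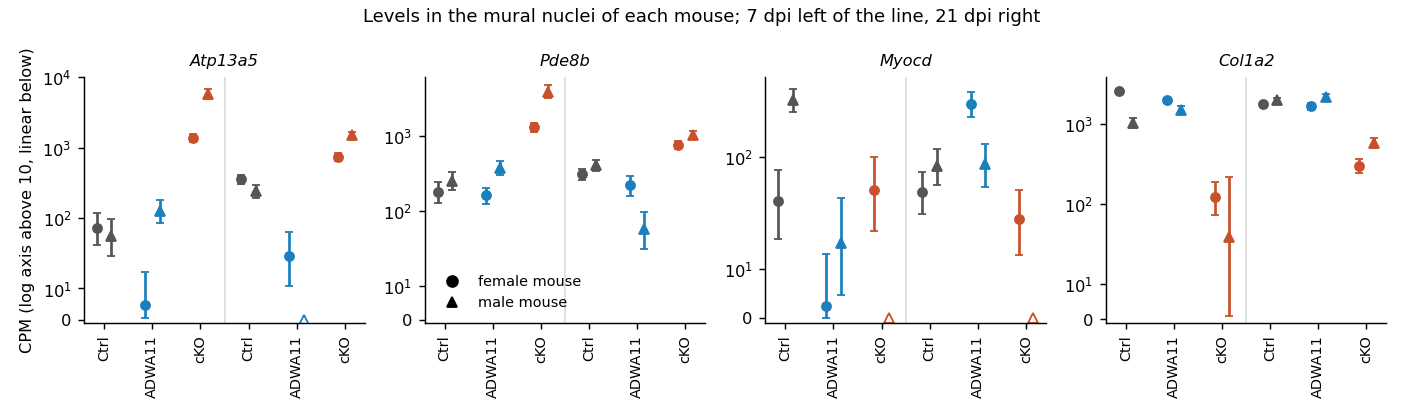
Levels of Atp13a5, Pde8b, Myocd and Col1a2 in the mural nuclei assigned to the female (circles) and male (triangles) mouse of each pool, in CPM on an axis that is logarithmic above 10 and linear below, with 95% exact Poisson intervals; an open triangle marks no UMI. Atp13a5 was high and Col1a2 low in both Tgfbr2-cKO mice at both times, whereas Myocd in Ctrl at 7 dpi was 40.3 CPM in the female and 328 CPM in the male mouse, with no UMI in either Tgfbr2-cKO male.

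In ADWA11 the pericyte genes at 7 dpi differed between all members and the core, and at 21 dpi some were lower in both. At 7 dpi none of 13 pericyte genes was higher and 1 was lower, where 7.16% of 8627 genes were higher and 4.95% lower. In the core 4 of 13 were higher (Vtn, Anpep, Art3 and Tbx18) and none lower, with a median log2 ratio of 0.42, where 7.04% of 5541 genes were higher and 4.33% lower. At 21 dpi none of 14 was higher and 4 were lower (Atp13a5, Vtn, Pde8b and Ndufa4l2), where 4.74% of 9700 genes were higher and 8.63% lower. Between the female nuclei only 1 was counted lower. Atp13a5 was lower in both mice, but Vtn stood at 141 CPM in the females of Ctrl and of ADWA11. In the males it stood at 196 CPM in Ctrl and 4.12 in ADWA11. In the core none of 12 was higher and 3 were lower, where 4.38% of 5110 genes were higher and 4.93% lower. Atp13a5 had 351 UMIs in Ctrl and 8 in ADWA11 at 21 dpi, a log2 ratio of -4.26 (-5.48 to -3.26). Grm3 had 249 and 10 UMIs, a ratio of -3.44 (-4.52 to -2.54). In the core these ratios were -4.78 and -3.68.

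Myocd and Lmod1 were lower than Ctrl in ADWA11 at 7 dpi and higher at 21 dpi over all members, while most contractile genes lay within 2-fold at each time. Myocd stood at 137 CPM in Ctrl and 9.02 in ADWA11 at 7 dpi, a log2 ratio of -3.92 (-5.18 to -2.88), and at 66.4 and 171 CPM at 21 dpi, a ratio of 1.37 (0.92 to 1.82). Lmod1 stood at 127 and 12.4 CPM and then at 54.8 and 127 CPM, with ratios of -3.36 (-4.42 to -2.44) and 1.22 (0.71 to 1.73). Of the contractile list, 3 of 17 were lower and none higher at 7 dpi, where 4.95% of all genes were lower, and none was lower and 6 of 18 were higher at 21 dpi, where 4.74% were higher.

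The counts rested largely on 1 mouse of each pool. At 7 dpi, 7 of 14 contractile genes were lower between the male nuclei of ADWA11 and Ctrl and 0 of 13 between the female nuclei (7.05% and 6.07% of all genes), where Myocd and Lmod1 had too few UMIs to be counted. Myocd stood at 16.8 against 328 CPM in the males and 2.40 against 40.3 CPM in the females. The 2 Ctrl mice thus stood further apart in Myocd at 7 dpi than the pooled ADWA11 and Ctrl libraries did at 21 dpi. At 21 dpi, 12 of 17 were higher between the female nuclei and 1 of 14 between the male nuclei (5.93% and 6.31% of all genes), with Myocd at 301 against 49.0 CPM in the females and 86.5 against 84.0 CPM in the males. In the core, 4 of 16 contractile genes were lower at 7 dpi, where 4.33% of all genes were, 1 of 18 was higher at 21 dpi, where 4.38% were, and the Myocd ratio was 0.77 (0.29 to 1.24). At 7 dpi the core ratio of Acta2 was 0.45 (0.03 to 0.87), against -0.55 (-0.90 to -0.19) over all members.

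In ADWA11 the type I collagen genes lay within 2-fold of Ctrl at both times, and Col12a1 was lower at 21 dpi in the core. Col1a1 had log2 ratios of -0.10 (-0.27 to 0.07) and then 0.04 (-0.13 to 0.21), and Col1a2 stood at 1501 and 1811 CPM and then at 1918 and 1861 CPM. Col12a1 at 21 dpi stood at 456 and 310.2 CPM (-0.56, -0.82 to -0.30), and in the core it had 55 and 11 UMIs (-1.89, -2.97 to -0.94). By mouse it stood at 482 and 126 CPM in the female and 518 and 532 CPM in the male nuclei. Of the matrix list 3 of 22 were higher and 1 was lower at 7 dpi, and 2 of 20 were higher and 1 was lower at 21 dpi. Of the basement membrane genes 1 of 17 was lower at 7 dpi, and 1 of 18 was higher and 2 were lower at 21 dpi. Over all genes 7.16% were higher and 4.95% lower at 7 dpi, and 4.74% and 8.63% at 21 dpi, and several of these counts lay near those shares. In the core 1 matrix gene was higher and 1 lower at each time (Col6a2 and Tnc of 17, then Col8a1 and Col12a1 of 16), and 1 basement membrane gene was higher and 1 lower of 17 at 7 dpi and 3 were lower of 16 at 21 dpi, where 7.04% and 4.38% of all genes were higher and 4.33% and 4.93% lower. Among TGFβ genes, Ltbp1 was lower at 7 dpi, at 378 against 54.1 CPM (-2.81, -3.28 to -2.35), with 202 and 1 UMIs in the core. The smooth muscle-like cluster, of which Ltbp1 was a leading gene, held 6 of 76 members in Ctrl and 0 of 86 in ADWA11 then. The part of this in the Ltbp1 ratio was not tested. Itgb8, the β8 chain that ADWA11 binds, was higher at 7 dpi, at 101 against 318 CPM (1.65, 1.25 to 2.07). In the core Itgb8 stood at 73.0 and 65.9 CPM, a log2 ratio of -0.15 (-1.05 to 0.75). Cemip, which degrades hyaluronan, ranked first among the genes higher at 7 dpi, with 134 against 1653 CPM, and in the core 3.04 against 192 CPM, a log2 ratio of 5.98 (3.45 to 11.30) on 1 UMI in Ctrl. At 21 dpi Ednrb, an endothelin receptor, stood at 29.9 CPM in Ctrl and 129 in ADWA11 (2.11, 1.51 to 2.74), and at 30.3 and 270.1 CPM in the core. S1pr3, a sphingosine 1-phosphate receptor, stood at 50.6 and 17.1 CPM.

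The remaining lists in ADWA11 held members that differed in both directions. At 7 dpi, where 7.16% of all genes were higher and 4.95% lower, 2 of 15 vascular tone genes were lower (Agtr1a and Ryr2, the latter a calcium release channel at 137 against 15.8 CPM), 1 of 13 recruitment and Notch genes was higher and 3 were lower, 2 of 12 inflammatory genes were higher and 1 was lower, and 2 of 25 TGFβ genes were higher and 4 lower. At 21 dpi, where 4.74% of all genes were higher and 8.63% lower, 1 tone gene was higher and 1 lower of 16 (Ednrb and S1pr3), 1 recruitment gene was higher and 1 lower of 14, 3 inflammatory genes were higher and 2 lower of 15, and 1 of 25 TGFβ genes was higher. In the core at 7 dpi 2 of 14 tone genes and 1 of 12 recruitment genes were lower, 1 TGFβ gene was higher and 2 lower of 22, and none of 4 inflammatory genes differed. In the core at 21 dpi 1 tone gene was higher and 1 lower of 15, 1 of 11 recruitment genes and 1 of 9 inflammatory genes were higher, and 2 TGFβ genes were higher and 1 lower of 23. The shares of all genes in the core were 7.04% higher and 4.33% lower at 7 dpi and 4.38% and 4.93% at 21 dpi, and most of the counts lay near the shares. Lifr, a receptor subunit for leukaemia inhibitory factor, stood at 112 CPM in Ctrl and 436 in ADWA11 at 21 dpi (1.96, 1.65 to 2.28), and at 169.8 and 291 CPM in the core. Tnc, tenascin C, stood at 57.3 and 284 CPM, and at 3.03 and 61.4 CPM in the core, on 1 and 15 UMIs.

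Between 7 and 21 dpi in Ctrl, cell cycle genes of the mural nuclei were lower at the later time. Mki67, the gene of the proliferation antigen Ki-67, stood at 103 CPM and then at 6.64, and Top2a, the topoisomerase of dividing cells, at 129 and then at 3.32 CPM. All 7 cell cycle genes compared (of 16) were lower at 21 dpi. Their median log2 ratio was -4.48, where 14.2% of 9665 genes were higher and 5.29% lower. In the core all 7 compared were lower as well, where 7.29% of 5460 genes were higher and 7.73% lower. The list's sum in Ctrl, 722 and then 47.3 CPM in mural nuclei, was lower at 21 dpi in other classes too. It was 219 and then 69.3 CPM in endothelial nuclei, 270.1 and 69.6 in fibroblasts and 412 and 109 in the remaining nuclei. In the male nuclei of Ctrl no cell cycle gene had enough UMIs to be compared (Mki67 had 14 and 0). ADWA11 had the same order (Mki67 123 and 3.81 CPM), and no gene of the list differed 2-fold between ADWA11 and Ctrl at 7 dpi among the 10 compared. In Tgfbr2-cKO at 7 dpi Mki67 stood at 16.9 CPM, on 4 UMIs. Of the cell cycle genes 6 of 7 were lower than in Ctrl, beside 14.04% of all genes. At 21 dpi Tgfbr2-cKO held 21.0 CPM of Mki67 and 34.6 of Top2a, on 17 and 28 UMIs. All 3 cell cycle genes with enough UMIs (Mki67, Top2a and Anln) were higher than in Ctrl, beside 6.95% of all genes. All 17 Mki67 UMIs, and the 26 Top2a UMIs in nuclei assigned to a mouse, were in the female. The cell cycle cluster held 4 of 76 members in Ctrl, 8 of 86 in ADWA11 and 0 of 44 in Tgfbr2-cKO at 7 dpi. At 21 dpi it held 1 of 186, 0 of 95 and 1 of 95 in the same order. The cell cycle levels thus came in part from few nuclei.

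Basement membrane genes were lower as well in Ctrl at 21 dpi, 6 of 18 with none higher, and in the core 4 of 17 with 1 higher, where 5.29% and 7.73% of all genes were lower. Col18a1, whose product releases endostatin, stood at 589 and then at 133 CPM (-2.15, -2.43 to -1.88). Lamb1, a laminin β chain, stood at 195 and then at 39.0 CPM (-2.32, -2.84 to -1.82). In the core these 2 ratios were -1.36 and -1.61. The list summed to 7270 and then 4226 CPM in mural nuclei of Ctrl, and to 6631 and then 3502 CPM in endothelial nuclei. Fibroblasts held 5036 and then 3491 CPM, and the remaining nuclei 2465 and 2483 CPM. Of the matrix list 7 of 21 were lower and none higher, and in the core 5 of 18 were lower and 2 higher, beside the same shares: Fn1, fibronectin, stood at 985 and 415 CPM, while Col1a1 stood at 803 and 750.3 CPM.

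Over the same interval Atp13a5 went from 48.3 to 291 CPM (2.59, 2.05 to 3.18) and Vtn from 20.9 to 147 CPM (2.81, 2.00 to 3.75), and in the core the ratios were 3.56 and 3.57. Of the pericyte list 4 of 15 were higher and 2 lower, among the latter Cspg4, at 214 and 68.1 CPM, and Ebf1, at 6635 and 2834 CPM. In the core 5 of 14 were higher and none lower. For this and the counts that follow, 14.2% of all genes were higher and 5.29% lower over all members, and 7.29% and 7.73% in the core. Inflammatory and adhesion genes were higher in 6 of 13 and lower in none, and in the core in 4 of 8 and none. Their sum in Ctrl, 1128 and then 1615 CPM in mural nuclei, was also higher at 21 dpi in other classes. It was 1307 and then 1738 CPM in endothelial nuclei, 839.7 and 989.8 in fibroblasts and 591 and 832 in the remaining nuclei. Cxcl12 stood at 24.1 and then at 139 CPM, with 1 and 29 UMIs in the core. Vcam1, an adhesion molecule for leukocytes, stood at 14.5 and then at 88.8 CPM, but only 1 and 3 of its UMIs lay in the core. Endothelial markers moved in the same direction over all members, with 7 of 12 higher (sums of 663 and 948 CPM, all 12 detected), and not in the core (584 and 570.1 CPM). Their part in the result was not tested. Smooth muscle genes showed 1 higher and 3 lower of 18 over all members, and 2 higher and none lower of 18 in the core. Acta2 stood at 220.4 and 173 CPM over all members (-0.35, -0.67 to -0.03) and turned in the core, at 252 and 528 CPM (1.06, 0.68 to 1.46). Recruitment and Notch genes showed 2 higher and 2 lower of 14, TGFβ genes 1 higher and 1 lower of 25, and vascular tone genes 1 lower of 16, which was Agtr1a. In the core they showed 1 higher of 11, 3 lower of 23 and none of 14, in the same order. Hes1, a Notch target, was among the higher (4.83 and 33.2 CPM, on 3 and 40 UMIs, a log2 ratio of 2.78, 1.13 to 5.12, with 2 and 6 of these UMIs in the core) and Heyl, another, among the lower (111 and 37.4 CPM).

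**Figure D5:**
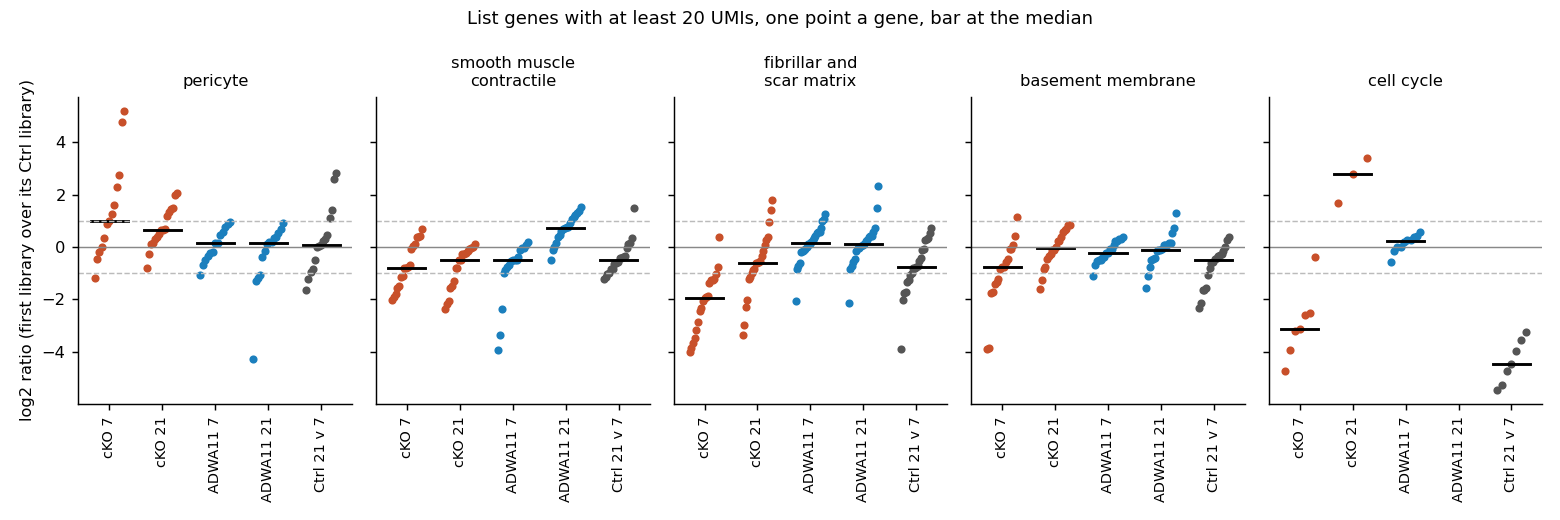
Log2 ratios of the genes of 5 lists with at least 20 UMIs in the 2 libraries compared, 1 point a gene, with a bar at the list's median and dashed lines at 2-fold; genes with no UMI in a library stand at their bound. The pericyte medians lay at 0.97 and 0.64 for Tgfbr2-cKO at 7 and 21 dpi, the matrix medians at -1.93 and -0.61, and the cell cycle median of Ctrl 21 against 7 dpi at -4.48.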

How the data were processed

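Nuclei were profiled with 10x Chromium 3′ chemistry. The authors aligned and counted the reads with Cell Ranger (7.2.0 per the file headers, 7.1.0 in the submitters' processing notes) on mm10. The deposited values are raw UMI counts per gene and barcode for 32285 genes. The members and gene lists were chosen with earlier results of these data known. Summed counts gave CPM, exact Poisson intervals, Clopper-Pearson intervals of shares and exact conditional intervals of ratios at 95%, binomial or, per endothelial nucleus, of the odds ratio (numpy 2.4.6, scipy 1.17.1). The ratio intervals were checked on data simulated with counting error alone, which does not test the spread between nuclei or mice. Nuclei were thinned to 1500 UMIs for depth-matched shares. Clusters came from scanpy 1.11.5 (1000 variable genes, 15 components, 15 neighbours, Leiden resolution 0.5, rule genes left out). Scrublet scores, cut at 0.8% of nuclei per 1000 barcodes, marked doublets and removed none from the main results. Nuclei were assigned to a mouse by Xist UMIs without Y-linked ones or the reverse, so that 1 UMI could decide. Named genes were up to 10 in each direction, ranked by the bound of the ratio's interval nearest to no difference, among genes with UMIs in at least 8 members of the higher library, at most 25% of them from 1 nucleus, and a level at least 2-fold over the library's remaining nuclei; list genes are named as examples chosen after their values were seen. Alternatives are under the closing section, with TMM scaling from edgeR 4.0.16. No test between conditions was possible. 1 of the genes this rule named is not reported here.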

Additional observations from a re-analysis of the deposited data

Results flagged for a closer look

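The difference between ADWA11 and Ctrl had opposite signs at 7 and 21 dpi for the named genes below, each past 2-fold both times with an interval that did not include no difference. The log2 ratios at 7 and 21 dpi were -3.92 and 1.37 for Myocd, -3.36 and 1.22 for Lmod1, -2.00 and 1.42 for Myom1, a sarcomere protein gene, -1.48 and 1.75 for Ldb3, a muscle LIM domain protein gene, and -1.84 and 1.17 for Ctnna3, an α-catenin gene. They were 4.28 and -2.32 for Ryr3, a calcium release channel gene with 3 UMIs in Ctrl at 7 dpi (interval of the ratio 2.68 to 6.58). In the core the ratios at 21 dpi were 0.60 (0.29 to 0.91) for Myom1, 0.77 (0.29 to 1.24) for Myocd and 0.51 (-0.04 to 1.06) for Lmod1, all under 2-fold, and 1.18 (0.67 to 1.70) for Ldb3, and Ryr3 had no UMI in the core of either library at 7 dpi. All but Ryr3 were among the leading genes of the smooth muscle-like cluster, so they are not independent of each other. That cluster held 0 of 86 members in ADWA11 and 6 of 76 in Ctrl at 7 dpi. At 21 dpi it held 25 of 95 and 21 of 186. Between the male nuclei at 21 dpi all but Ryr3 lay within 2-fold, with Myom1 at 247 CPM in ADWA11 and 199 in Ctrl. Between the female nuclei they were past 2-fold, with Myom1 at 612 and 141 CPM. The difference between the 2 times was not tested, since each group was 1 library.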

How the results depend on the processing

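Of 318 values recomputed for shares, ratios and list counts under the alternatives, 251 stayed within the main value's interval or within 1.5 times the main count. The cause of the moves below was not tested. The log2 share ratio of Tgfbr2-cKO at 7 dpi turned to 0.68 among non-neural nuclei. The other share ratios that moved were -0.50 thinned and 0.57 among non-neural nuclei (Tgfbr2-cKO, 21 dpi), -0.88 thinned (ADWA11, 7 dpi), -0.14 in females and -1.68 in males (ADWA11, 21 dpi) and 0.26 in the core (Ctrl, 21 against 7 dpi). Per endothelial nucleus all 50 values lay within the main interval, among them 1.28 in males and 2.33 in females (Tgfbr2-cKO, 7 dpi) and 0.77 thinned (21 dpi).

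For the percentage of members with smooth muscle genes, 20 of 42 values moved. In Ctrl at 7 dpi it was 17.2 thinned, 19.7 with at least 3 genes and 48.1 in males; in ADWA11, 12.2 thinned, 9.30 with 3 genes and 39.4 without members led by another class; in Tgfbr2-cKO, 3.57 thinned and 0 both in males and without members led by another class. In Ctrl at 21 dpi it was 16.1 with 3 genes, 44.1 without members led by another class, 20.3 in females and 40.9 in the core. In ADWA11 it was 53.4 thinned, 52.5 without members led by another class, 53.8 in females, 28.9 in males and 59.3 in the core. In Tgfbr2-cKO it was 7.37 with 3 genes and 5.88 in males. The cluster with the most Atp13a5 held 62 nuclei at a resolution of 0.8.

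The number of genes past 2-fold in either direction, with no minimum of UMIs, was 6753 and 6503 (Tgfbr2-cKO at 7 and 21 dpi), 5730 and 6080 (ADWA11) and 6042 (Ctrl, 21 against 7 dpi). Without members led by another class it was 900, 891, 477, 537 and 800 in the same order, and in the core 1088, 907, 630, 476 and 820. By mouse it was 1093 in females and 962 in males (Tgfbr2-cKO, 7 dpi), and in males 804 (ADWA11, 21 dpi) and 1031 (Ctrl, 21 against 7 dpi). With at least 4 of the 7 markers it was 664 (ADWA11, 7 dpi).

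Contractile genes counted lower in Tgfbr2-cKO at 7 dpi were 4 with at least 50 UMIs, 4 with at least 4 markers and 2 in females, and at 21 dpi 3 in females and 10 in the core. In ADWA11 at 7 dpi they were 1 with at least 4 markers, 0 in females and 7 in males. Those counted higher in ADWA11 at 21 dpi were 0 without members led by another class, 12 in females, 1 in males and 1 in the core. Matrix genes lower in Tgfbr2-cKO were 8 without members led by another class and 10 in males at 7 dpi, and 12 at 21 dpi by the mean of CPM per nucleus. Pericyte genes lower in ADWA11 at 21 dpi were 2 by that mean and 1 in females. In Ctrl, 21 against 7 dpi, the cell cycle count could not be made in males, where no gene had enough UMIs, and 3 inflammatory genes were higher without members led by another class and 1 in males.

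Among named genes, TMM scaling left all 100 values within the main interval. Values left it for 39 of 67 genes in males and 29 of 80 in females, 25 of 80 with at least 4 markers, 26 of 63 without members led by another class, 24 of 76 in the core, 25 of 100 by the mean of CPM per nucleus, 11 of 94 without each gene's top nucleus and 6 of 99 without doublets, beside those whose sign turned. The sign turned for Sned1 in Tgfbr2-cKO at 21 dpi (-2.12 without members led by another class, -1.06 in the core) and, in ADWA11 at 7 dpi, for Flrt2 (-0.20), Tll1 (-0.35), Ntn4 (0.35) and Myom1 (0.24) with at least 4 markers, Tll1 (-0.44) without members led by another class, Itgb8 (-0.15) in the core and Thsd4 (0.33) in females. The core was chosen after seeing the data. No paired analysis was made, because each group is 1 library and the labels pair no mice between groups. The values by mouse set 1 mouse against 1 other of the same sex. The 44 Tgfbr2-cKO nuclei at 7 dpi, at a median of 3491 UMIs, limit what could be seen in low genes.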
